A study of Rattus norvegicus with 6 samples.

Results

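The motile cilium and intraflagellar transport genes were a set of 65 genes among the 14217 named genes measured in rat lung. They were taken by symbol: Foxj1, Tppp3, Spag6, Spag6l and Spag16, and every gene whose symbol is Dnah, Dnai, Dnal, Tekt, Cfap, Rsph, Drc, Odad, Ift or Bbs followed by a digit. Of the 69 genes with such a symbol and a probe set annotated to that gene alone, 4 had a mean signal under 50 over the 6 arrays and were left out. Members were thus selected on symbol and on mean signal over all 6 arrays, without regard to group, so their brightness is a description. Just inside that limit were Rsph3, with a mean signal of 51.0, and Bbs12, with 72.5. Just outside were Spag16, with 23.5, and Dnah17, with 6.68, and the others left out were Rsph6a and Tekt5l1. Spag6 and Spag6l were not analysed here.

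Lungs of 6 rats of the inbred Lewis strain were measured on 1-colour expression arrays, each lung on its own array. For silica, 3 rats inhaled an aerosol of Min-U-Sil 5, a fine quartz dust, at 6.2 mg/m3, 6 hours daily, 5 days weekly, through 6 weeks. For control, 3 rats inhaled filtered air in like conditions. The sources used here give neither age nor sex, nor when tissue was taken after the last exposure. Values are signal intensities, and a fold change is silica minus control on the log2(signal + 16) scale ± SE, which understates differences of dim genes. In RNA from whole lung, fewer cells of a type and less RNA per cell cannot be told apart.

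Motile cilia are the beating hairs of airway ciliated cells, which move mucus and trapped particles out of the lung. Their core, the axoneme, is a ring of doublet microtubules around a central pair; dynein arms bend it, radial spokes and the nexin-dynein regulatory complex time the bending, and tektins and other inner proteins line the doublets. Foxj1 is the transcription factor that switches on the motile cilium programme, together with RFX factors that bind a DNA element called the X-box. Intraflagellar transport carries building material along the cilium on trains of complexes A and B, and the BBSome moves membrane proteins; both also serve the immotile primary cilium of many other cell types.

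Most of the 65 genes had a slightly lower signal in silica than in control lungs, but none passed the test as a gene by itself. At a limma adjusted p under 0.05 over all 31042 probe sets, 0 of 65 were lower, where 0.145% of all probe sets were, and 0 of 65 were higher, where 0.934% were (1.86% of named genes with a mean signal of 50 or more). The smallest adjusted p was 0.130, for Cfap144. At an unadjusted limma p under 0.05, 7 members were lower (10.8%), where 7.94% of probe sets and 8.01% of those named genes were, and 0 were higher, where 9.35% were. In silica 56 of 65 members (86.2%) were lower and 9 higher, with a median log2 fold change of -0.15, a change of -9.65%. Of the 11447 named genes of the same minimum signal, 46.0% were lower, and their median was 0.02; of all probe sets 50.2% were lower. The members' fold changes ran from -0.54 to 0.24, their middle part from -0.26 to -0.06, and their median SE was 0.14, so the typical difference was about as large as its own error. Without silica replicate 2 the median was -0.06 and 44 of 65 members (67.7%) were lower, where 44.5% of all named genes of that brightness were. Groups that did not overlap were found for 14 members lower in silica (21.5%), where 14.6% of named genes of that brightness were, and for 1 member higher (1.54%), where 21.4% were. With 3 lungs a group, 0.1 is the smallest p that exact permutation allows.

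**Figure D1:**
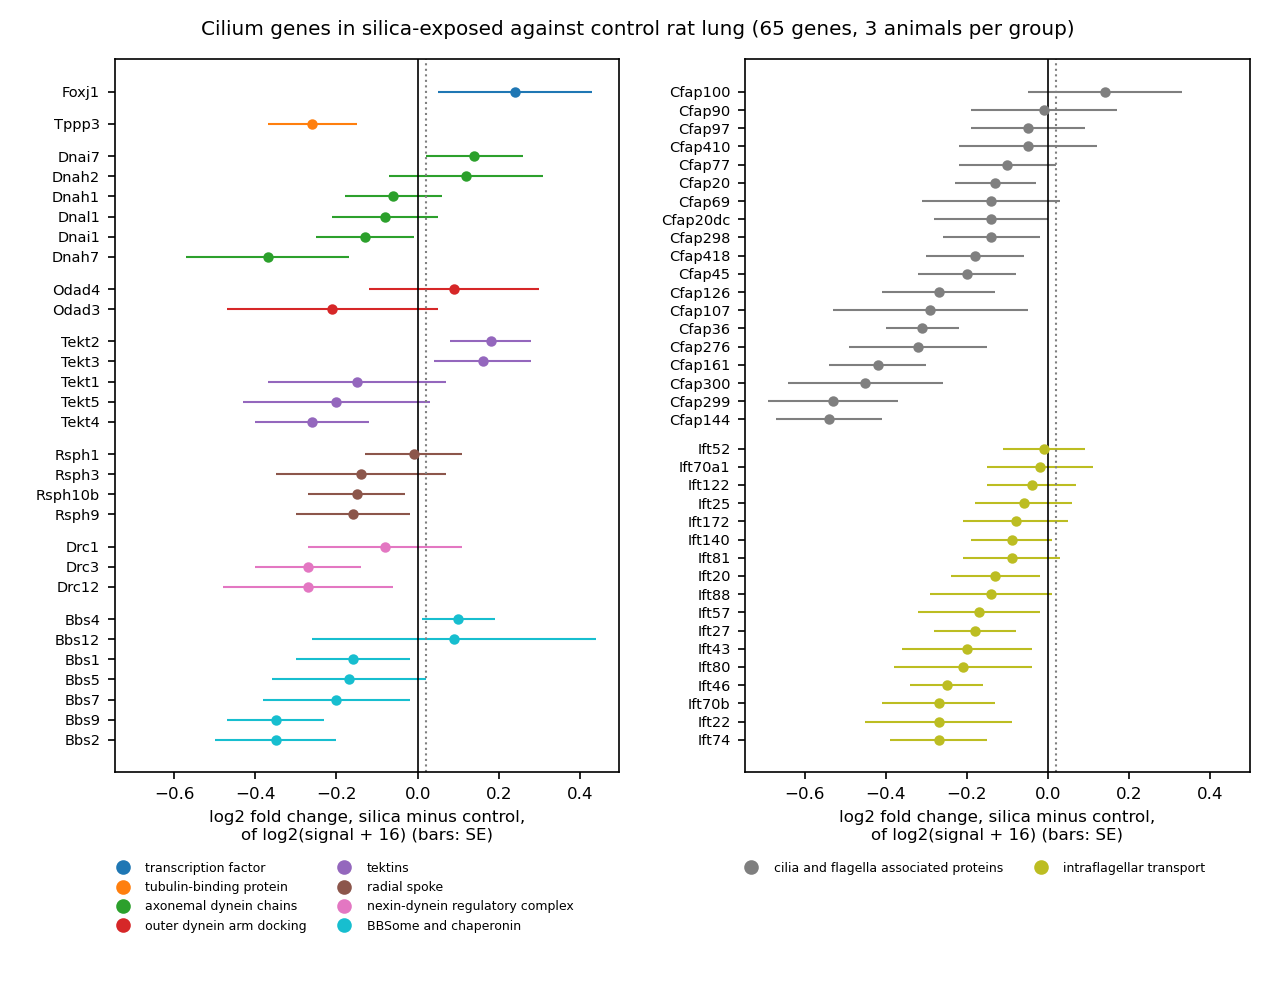
Log2 fold change (silica minus control, of log2(signal + 16), x axis) of each of the 65 genes, with bars for the SE and colours for the role; the dotted line is the median of all named genes of the same minimum signal, 0.02. Points lie left of 0 for 56 genes, all 17 Ift genes among them, and right of 0 for 9, among them Foxj1, Tekt2 and Tekt3.

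The lungs of a group differed from each other in these genes. Relative to the mean of the 3 controls, the median member stood at 0.07, -0.04 and -0.03 in control replicates 1, 2 and 3 and at -0.08, -0.30 and -0.07 in silica replicates 1, 2 and 3. Silica replicate 2 therefore carried most of the shift, and the other silica lungs lay close to the lower controls. Over all named genes of that brightness the same medians lay between -0.01 and 0.04. Among the 3 silica lungs, silica replicate 2 was the lowest for 49 of 65 members (75.4%), where it was the lowest for 36.8% of those named genes. Among the 3 controls, control replicate 1 was the highest for 43 of 65 (66.2%), where it was for 34.0%. Control replicate 2 was the lowest control for 31 of 65 (47.7%), where it was for 32.3%. Silica replicate 1 was the highest silica lung for 36 of 65 (55.4%), where it was for 35.4%. In each group, then, the same lung was at 1 end for most members. In both groups replicate 1 was most often the highest and replicate 2 most often the lowest.

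**Figure D2:**
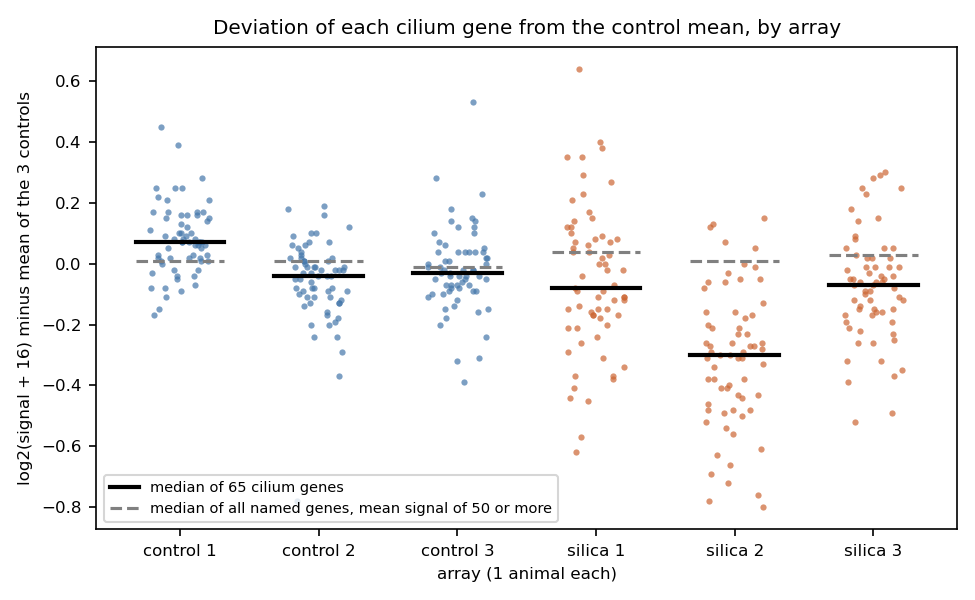
Each point is 1 of the 65 genes in 1 lung, as log2(signal + 16) minus the mean of the 3 controls (y axis), with the lungs along the x axis; solid lines are the members' medians and dashed lines those of all named genes with a mean signal of 50 or more. The solid line sits at -0.30 in silica replicate 2 and at -0.08 and -0.07 in the other silica lungs, while the dashed lines stay between -0.01 and 0.04.

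Foxj1, the regulator of the programme, had an estimate above 0 with a wide interval. Its signal was 256, 250.0 and 246 in the control lungs and 399.7, 237 and 278 in the silica lungs. The controls lay within a narrow band, silica replicate 1 stood far above it, silica replicate 3 somewhat above and silica replicate 2 just below. Its estimate was 0.24 ± 0.19 (adjusted p = 0.577), with a 95% interval of -0.23 to 0.70. It was 0.03 without silica replicate 1, 0.39 without silica replicate 2 and 0.05 with RNA quality as a covariate. Tppp3, a tubulin-binding protein that is a common marker of ciliated cells, read 9461, 9235 and 9224 in the control lungs and 8342, 6979 and 8018 in the silica lungs. All silica lungs were below all controls, and silica replicate 2 was the lowest. The difference of -0.26 ± 0.11 did not pass (adjusted p = 0.285).

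All members other than Foxj1 and the transport and BBSome genes are called motile axoneme members here, by symbol. Not all of their products are parts of the motile axoneme, as with Tppp3, Cfap36, Cfap410 and Cfap418. They numbered 40, of which 34 were lower, with a median of -0.15 that was -0.08 without silica replicate 2.

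Axonemal dynein chains, the motor parts of the arms, were split, with 4 of 6 lower, 2 higher and a median of -0.07. Dnah7, an inner arm heavy chain, read 438, 439.7 and 457 in the control lungs and 408, 248 and 388 in the silica lungs. The controls were tightly grouped and the silica lungs spread widely, from silica replicate 2 far below to silica replicate 1 near the controls (-0.37 ± 0.20, adjusted p = 0.385; -0.16 without silica replicate 2). Dnah1, another inner arm heavy chain, had -0.06 ± 0.12 (adjusted p = 0.833), and Dnai7, an inner arm-associated intermediate chain protein, had 0.14 ± 0.12 (adjusted p = 0.602). Dnai1 and Dnal1, of the outer arm, had -0.13 and -0.08, and Dnah2 had 0.12. The genes Odad3 and Odad4, whose products dock the outer arm on the doublet, had -0.21 ± 0.26 and 0.09 ± 0.21 (adjusted p = 0.725 and adjusted p = 0.861). These were dim genes with wide intervals, -0.85 to 0.43 and -0.41 to 0.59.

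Tektins, filament proteins inside the doublets, included the only member whose silica lungs all lay above all controls. Tekt2 read 849, 823 and 762 in the control lungs and 870.2, 905 and 992 in the silica lungs (0.18 ± 0.10, adjusted p = 0.426). The gap between the groups was small, since control replicate 1 was just under silica replicate 1. Tekt3 had 0.16, whereas Tekt4 had -0.26 ± 0.14 (adjusted p = 0.394; -0.16 without silica replicate 2), Tekt5 -0.20 and Tekt1 -0.15. For Tekt1 the silica lungs read 768, 434 and 692, so that silica replicate 1 was above every control and silica replicate 2 below every control.

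The 4 radial spoke genes were all lower, with a median of -0.14. Rsph9, of the spoke head, had -0.16 ± 0.14 (adjusted p = 0.606) and Rsph10b -0.15 ± 0.12 (adjusted p = 0.590), though a further, dimmer Rsph10b probe set had 0.44 and the mean of both had 0.15, so its direction is not settled. Without silica replicate 2, Rsph9 had -0.04. Rsph1, another head protein, was near 0 (-0.01). In the nexin-dynein regulatory complex, which links neighbouring doublets, all 3 genes with a Drc symbol were lower. Genes of this complex under other symbols were listed with the other motile cilium genes, among them Gas8 (0.17) and Ccdc65 (-0.27). Drc3 read 515, 475 and 483 in the control lungs and 409, 347 and 469 in the silica lungs, which put all silica lungs, replicate 3 only just, below the controls (-0.27 ± 0.13, adjusted p = 0.361; -0.16 without silica replicate 2). Drc12 read 1358, 1193 and 1249 in the control lungs and 1229, 759 and 1234 in the silica lungs. Here silica replicates 1 and 3 were within the range of the controls and silica replicate 2 alone was low (-0.27 ± 0.21, adjusted p = 0.560; -0.04 without it). Drc1 had -0.08. Roles were assigned by symbol, so genes of other symbols were not counted in the central apparatus. Of its assigned symbols only Spag16 was analysed, and it was too dim to be a member. Its control lungs read 26.8, 35.6 and 60.5 and its silica lungs 9.10, 2.40 and 6.30, and a further Spag16 probe set read 24.6, 23.5 and 13.5 in control and 6.30, 29.4 and 24.8 in silica.

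Cilia and flagella associated proteins, named for their place in cilia rather than for 1 function, formed the largest group. Of 19 genes 18 were lower, with a median of -0.18, and 7 of the 19 (36.8%) had silica lungs wholly below the controls, where 14.6% of named genes of that brightness did. Cfap144, a protein of the inner wall of the doublet, read 3765, 3560.1 and 3491 in the control lungs and 2788, 2119 and 2567 in the silica lungs. All silica lungs lay below all controls, with silica replicate 2 again the lowest. Its log2 fold change of -0.54 ± 0.13 was the largest of the 65 in size and did not pass (adjusted p = 0.130, 95% interval -0.85 to -0.22). A further Cfap144 probe set read 2961, 2978 and 3061 in control and 2125, 1681 and 2342 in silica (-0.56 ± 0.14, adjusted p = 0.142), so both probe sets gave nearly the same difference.

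Cfap161, also a doublet inner protein, read 506, 463 and 515 in the control lungs and 388, 318 and 393 in the silica lungs, again without overlap (-0.42 ± 0.12, adjusted p = 0.169). Cfap299 read 469.7, 338 and 456 in the control lungs and 276, 259 and 318 in the silica lungs. Its groups were apart by little, because control replicate 2 was close to silica replicate 3 (-0.53 ± 0.16, adjusted p = 0.184). Cfap300, needed for assembly of dynein arms, had -0.45 ± 0.19 (adjusted p = 0.291). Cfap36, a binding partner of the ciliary GTPase Arl3, read 1120.4, 1146 and 1089 in the control lungs and 855, 913 and 930.4 in the silica lungs. Every silica lung was clearly below every control (-0.31 ± 0.09, adjusted p = 0.182), but a further, dimmer Cfap36 probe set had 0.03. Some Cfap doublet inner proteins were grouped after their values were seen (Cfap20, Cfap45, Cfap77, Cfap90, Cfap107, Cfap126, Cfap144, Cfap161 and Cfap276). They were lower in 9 of 9 cases, where 46.0% of named genes with a mean signal of 50 or more were. Their fold changes ran from -0.54 to -0.01, with a median of -0.27, and silica replicate 2 was the lowest lung for 7 of the 9. The tektins, also inside the doublets, were left out of that group, and 3 of 5 tektins were lower and 2 higher. Cfap298, another assembly factor of dynein arms, had -0.14. Cfap418 and Cfap410, linked to the cilium of photoreceptors, had -0.18 and -0.05. Cfap100 was the only Cfap member that was higher (0.14).

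Promoters bear on this set because the RFX factors that act with Foxj1 bind the X-box. RefSeq windows of the rat assembly GRCr8, from 250 bases before to 50 after the transcription start, were matched for 53 of the 65 genes. The X-box was searched on both strands as GTTNCC and GGNAAC with 1, 2 or 3 bases of any kind between them. It was found in 4 of the 53 windows (7.55%), where 0.798% of 27457 promoters held it. These were 4 of 33 windows of motile axoneme members (12.1%), with 0 of 13 for transport and 0 of 7 for BBSome members. The shorter X-box arm GTTGCC, which can lie within an X-box, was in 20 windows (37.7%), where 12.2% of all promoters held it. By group the arm was in 13 of 33 motile axoneme (39.4%), 4 of 13 transport (30.8%) and 3 of 7 BBSome windows (42.9%). The forkhead core GTAAACA, the letters bound by Foxj1 and related factors, was in 2 windows (3.77%), both of motile axoneme members. It was in 3.76% of all promoters and in 2.39% of those of named genes with a mean signal of 50 or more. Such a match is a description of letters and does not show binding. The 4 windows are shown because they hold the full element, with its letters in capitals, and Cfap144 among them had the largest fold change of the set.
Cfap144, chr10:44019232-44019531, minus strand: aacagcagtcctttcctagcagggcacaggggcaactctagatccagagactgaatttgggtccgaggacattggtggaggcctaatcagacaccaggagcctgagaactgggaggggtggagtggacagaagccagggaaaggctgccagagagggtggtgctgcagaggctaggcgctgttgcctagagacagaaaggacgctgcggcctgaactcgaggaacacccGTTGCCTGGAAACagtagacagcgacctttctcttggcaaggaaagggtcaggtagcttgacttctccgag
Cfap298, chr11:43677333-43677632, minus strand: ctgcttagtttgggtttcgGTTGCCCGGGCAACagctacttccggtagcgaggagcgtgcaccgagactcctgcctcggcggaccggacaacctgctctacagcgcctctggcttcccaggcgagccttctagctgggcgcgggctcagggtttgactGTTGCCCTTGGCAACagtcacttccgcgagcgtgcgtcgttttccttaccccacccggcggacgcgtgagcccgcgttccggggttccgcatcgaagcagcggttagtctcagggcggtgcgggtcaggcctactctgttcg
Cfap20dc, chr15:18661312-18661611, plus strand: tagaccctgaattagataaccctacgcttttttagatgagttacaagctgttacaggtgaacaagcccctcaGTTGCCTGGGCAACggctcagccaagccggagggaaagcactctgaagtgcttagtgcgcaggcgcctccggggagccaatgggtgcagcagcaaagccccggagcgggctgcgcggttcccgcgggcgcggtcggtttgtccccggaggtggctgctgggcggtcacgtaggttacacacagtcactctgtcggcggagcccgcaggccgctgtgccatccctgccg
Odad3, chr8:28810462-28810761, minus strand: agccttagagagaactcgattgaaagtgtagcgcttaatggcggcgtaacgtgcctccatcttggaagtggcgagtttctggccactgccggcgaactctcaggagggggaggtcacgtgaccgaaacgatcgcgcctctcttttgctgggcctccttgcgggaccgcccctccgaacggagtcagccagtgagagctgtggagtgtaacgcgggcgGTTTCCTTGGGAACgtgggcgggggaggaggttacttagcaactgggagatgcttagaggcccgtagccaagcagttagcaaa
In Cfap144 the element begins 21 bases before the start and in Odad3 33 bases before it; Cfap298 holds 2 of them. All 4 genes were lower in silica, with log2 fold changes of -0.54, -0.14, -0.14 and -0.21. Their median was -0.17, and that of the 49 matched genes without the element, of which 42 were lower, was -0.14.

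Intraflagellar transport genes with an Ift symbol were lower in 17 of 17 cases, each by a small amount. Their median was -0.14, or -0.05 without silica replicate 2, and their range was from -0.27 to -0.01. Transport genes under other symbols were listed with the partners and are not counted here. Among them were Cluap1 of complex B (0.00) and Wdr19 and Wdr35 of complex A (-0.12 and -0.16). Complex B, which carries cargo toward the tip, had a median of -0.16 over 14 genes, and complex A, which serves the return, -0.09 over 3. Ift46, which ferries outer dynein arms, read 1069, 1033 and 979.6 in the control lungs and 886, 842 and 861 in the silica lungs. No silica lung reached the lowest control, and the spread within groups was small (-0.25 ± 0.09, adjusted p = 0.252). Ift74, one of the tubulin-binding core proteins of complex B, read 466, 359 and 429 in the control lungs and 356, 327 and 346 in the silica lungs. Control replicate 2 was near silica replicate 1, so the groups were apart only narrowly (-0.27 ± 0.12, adjusted p = 0.338). Ift27, a small GTPase of complex B, also had groups that did not overlap (-0.18), and Ift70b and Ift22 had -0.27 and -0.27. Ift25, which pairs with Ift27, had -0.06 ± 0.12 (adjusted p = 0.839), and turned to 0.02 without silica replicate 2. Ift52, a core protein of complex B, had -0.01 with a 95% interval of -0.24 to 0.23.

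BBSome genes were lower in 5 of 7 cases, with a median of -0.17. That median was -0.06 without silica replicate 2 and -0.09 without control replicate 1, and -0.29 and -0.27 without control replicate 2 and silica replicate 1. Bbs9, a BBSome subunit, read 476, 478 and 447 in the control lungs and 337, 342 and 416 in the silica lungs. The controls agreed closely and the silica lungs were all below them (-0.35 ± 0.12, adjusted p = 0.218). Bbs2, a subunit that pairs with Bbs7, read 420.0, 399.7 and 336 in the control lungs and 338, 255 and 304 in the silica lungs, with silica replicate 1 above the lowest control (-0.35 ± 0.15, adjusted p = 0.294). Bbs7 had -0.20 ± 0.18 (adjusted p = 0.615) and -0.06 without silica replicate 2, and Bbs1 and Bbs5 had -0.16 and -0.17. Bbs4 had 0.10 and the chaperonin-like Bbs12 0.09, the latter with an interval of -0.77 to 0.95.

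**Figure D3:**
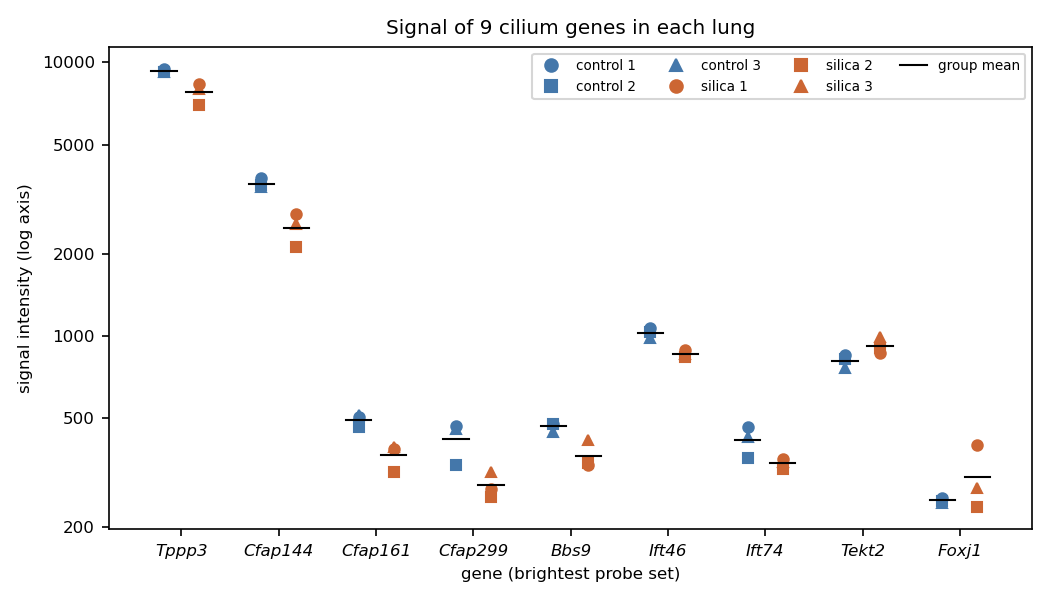
Signal intensity (y axis, log scale) of 9 of the 65 genes in each of the 6 lungs, with a symbol for the replicate number, which was not used to pair the lungs, and a line for each group mean. Cfap144, Cfap161, Tppp3, Bbs9, Ift46, Ift74 and Cfap299 have silica lungs below all controls, Tekt2 has them above, and Foxj1 has silica replicates 1 and 3 above and silica replicate 2 below the controls.

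Further probe sets did not always give the same size of difference. Of the 65 genes 13 had 16 further, dimmer probe sets, none of which passed, and 10 of the 16 had the sign of the brightest. Ift46 had -0.56 ± 0.15 in its further probe set and -0.25 in its brightest, Ift25 -0.41 and -0.06, and Bbs1 -0.65 and -0.16. Dnal1 had -0.49 and -0.58 in further probe sets and -0.08 in its brightest. Further probe sets of the other sign were found for 6 genes: Bbs7 (0.03), Cfap36 (0.03), Ift122 (0.05), 1 of the pair of Ift25 (0.06, with signals of at most 2.5), Rsph10b (0.44) and Bbs4. For Bbs4 the further probe set read 168, 143 and 124 in control and 93.1, 86.1 and 99.6 in silica (-0.56 ± 0.13), against 0.10 in the brightest, so its direction is not settled.

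Cilium genes without these symbols were described the same way, and most of their estimates were also below 0. Of 59 such genes with a mean signal of 50 or more, 0 were lower and 0 higher at a limma adjusted p under 0.05, and at an unadjusted p under 0.05 there were 8 lower and 1 higher, where 8.01% and 14% of all named genes of that brightness were. Lower estimates were found for 46 of 59 (78.0%, where 46.0% of those named genes were lower), with a median of -0.12. Among other motile cilium genes 18 of 21 were lower, with a median of -0.19. Dynlrb2, a dynein light chain of ciliated cells, read 4253, 3757 and 4042 in the control lungs and 3348, 2895 and 3373 in the silica lungs, without overlap (-0.33 ± 0.11, adjusted p = 0.222). Mlf1 and Dnali1, also active in ciliated cells, had -0.45 and -0.30. Transport and BBSome partners were lower in 24 of 29 cases, with a median of -0.13. The smallest adjusted p in these lists was that of Arl3, which read 1179, 1138 and 1203 in the control lungs and 876, 833 and 882 in the silica lungs (-0.44 ± 0.09, adjusted p = 0.0970). Every silica lung was well below every control for Arl3, and its replicates were tight. Regulators of multiciliation were lower in 4 of 9 cases, with a median of 0.03. Rfx2 and Rfx3, which bind the X-box, had -0.02 ± 0.11 and -0.01 ± 0.16, and Plk4, a kinase of centriole duplication that is also active in dividing cells, had 0.38 ± 0.11 (adjusted p = 0.172).

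Marker lists of other cell types and a measure of RNA quality are given beside these values. The ciliated cell markers that were measured, 10 of 14, all had a mean signal of 50 or more; 9 were lower, with a median of -0.16, and their summed signal was 24356 to 25694 in control and 19246 to 22522 in silica. These 10 include 5 of the 65 genes. All 7 germ cell markers, from a tissue where axoneme genes are also active, had a mean signal under 50. Club cell markers, of the secretory neighbours of ciliated cells, were lower in 5 of 5 measured cases, with a median of -0.44 and summed signals of 40942 to 49140 in control and 34955 to 41779 in silica. Alveolar type 1 markers were lower in 5 of 6 cases (median -0.27, summed signals of 56239 to 59844 in control and 46777 to 51239 in silica), endothelial markers in 6 of 7 (-0.18), and alveolar type 2 markers in 5 of 10, with a median of 0.00. Goblet and basal cell markers were lower in 4 of 7 and 3 of 7 cases, with medians of 0.00 and 0.13. Of these, 1 goblet marker and 4 basal markers had a mean signal under 50, so their signs say little. The goblet marker Bpifb1 had 1.52 ± 0.49 (adjusted p = 0.204), without overlap of the groups.

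T cell markers were higher in 6 of 6 cases, 5 of them past the limma threshold, with a median of 1.08 and summed signals of 1761 to 2148 in control and 3710 to 4841 in silica. Proliferation markers were higher in 5 of 6 cases, 3 of them past it, with a median of 1.08 and sums of 1529 to 1957 in control and 2464 to 2745 in silica. Neutrophil markers were higher in 5 of 5 cases (0.65) and macrophage markers in 4 of 5 (0.10), with 1 gene of each past the threshold. The neutrophil marker Cxcr2 had a mean signal under 50. All arrays were scaled to 1 mean signal, and the part of these other cells in the lower cilium signals was not tested. The log2 ratio of 3-prime to 5-prime signal of beta-actin and GAPDH, a measure of RNA quality, was 1.23, 1.20 and 0.99 in control replicates 1, 2 and 3 and 1.67, 1.49 and 1.15 in silica replicates 1, 2 and 3. The groups overlapped, since silica replicate 3 was below control replicates 1 and 2. With it as a covariate the members' median was -0.14, 54 of 65 were lower, and 1 rather than 7 was lower at an unadjusted limma p under 0.05. The transport median was then -0.09 (-0.14 in the main fit), the motile axoneme median -0.17 (-0.15) and the BBSome median -0.23 (-0.17). Among single genes Foxj1 had 0.05, Odad3 -0.51, Odad4 0.24, Drc3 -0.16, Bbs9 -0.23, Bbs7 -0.31 and Dnah1 -0.13. The part of RNA quality in the lower cilium signals was not tested further.

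**Figure D4:**
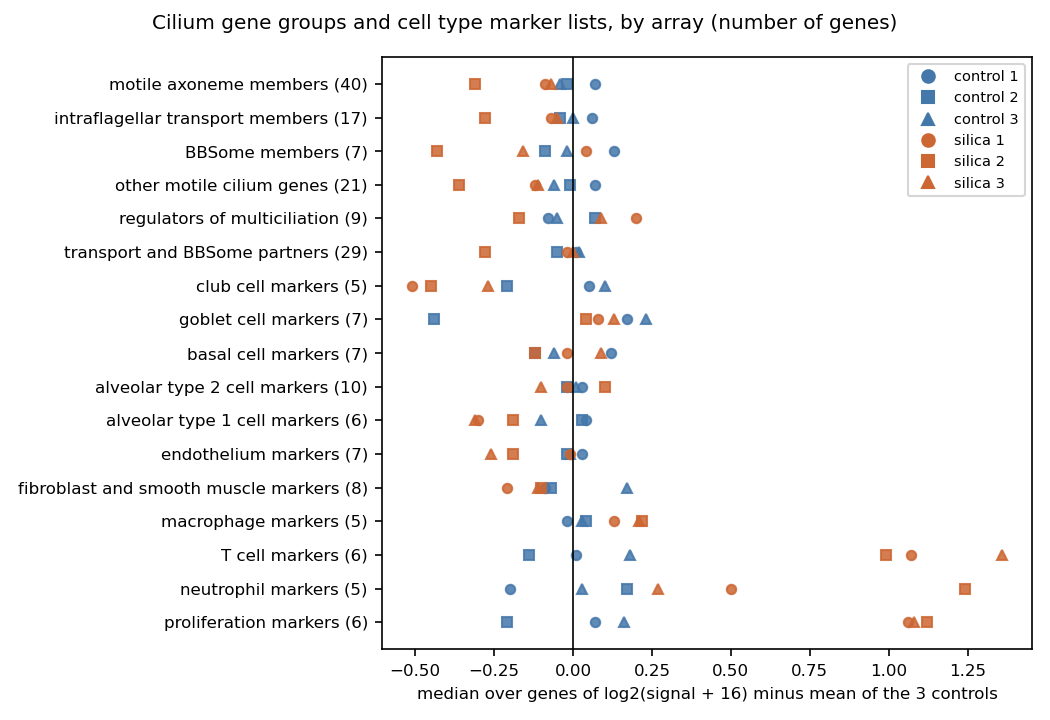
Median over the genes of each list of log2(signal + 16) minus the mean of the 3 controls (x axis), for 3 groups of the 65 genes, 3 lists of other cilium genes and 11 lists of cell type markers, with the number of genes in brackets and a point for each lung. Silica replicate 2 is the lowest point in the 3 member groups and in the lists of other cilium genes, while T cell and proliferation markers lie near or above 1 in all silica lungs.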

How the data were processed

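The authors deposited 1 linear intensity for every probe set on every array; the trimmed means (500.14 to 500.15) show that arrays had been scaled alike, by software that the sources used here do not name. Per the labels' protocols, the hybridised material was biotinylated cRNA. Of 31099 probe sets 57 were array controls and left out. Gene names came from the platform annotation, with symbols updated by gene identifier to RefSeq (GRCr8), which changed none of the members' symbols. Genes with several probe sets took the brightest.

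Values were analysed as log2(signal + 16) with limma 3.58.1 in R 4.3.3 (4 residual and 2.18 prior degrees of freedom), with group as the term and Benjamini-Hochberg adjustment over 31042 probe sets, and the script was tested on simulated data. Samples were grouped by title. The number of arrays limits the precision, and p-values measure the spread between these animals. Replicate numbers were not used to pair the lungs in the main fit (0 of 3 correlations of deviations over 0.1, over all probe sets). Whether lungs of the same number shared a batch was not tested. The members, lists and tests were chosen with earlier results of these data known. Named by rule were Foxj1, Tppp3, members past the threshold and, per role, the brightest and the 2 with the smallest p; other members were named after their values were seen. Of the cell type lists, mesothelium and fibroblast markers are given in the closing section.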

Additional observations from a re-analysis of the deposited data

How the results depend on the processing

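The medians of all members and of the motile axoneme, transport and BBSome members stayed below 0 under every alternative run (quantile normalization, median centring, pseudocounts 1 and 64, the dimmer 50% left out, an intensity trend with robust spread, no moderation, array weights, the replicate block, an RNA quality covariate, the mean of all probe sets, minimum signals of 25 and 100, platform symbols, and each array left out). With 1 array left out they ran from -0.20 to -0.06, -0.22 to -0.08, -0.18 to -0.05 and -0.29 to -0.06; silica replicate 2 gave the value nearest 0 for each. The count of members called lower was 0, where 1.08% of all probe sets were called in either direction, but 3 with the dimmer 50% left out (Cfap144, Cfap161 and Cfap36, adjusted p = 0.0270, 0.0436 and 0.0473), where 15520 probe sets were tested and 10.6% of them called, 2 with the intensity trend and robust spread (Cfap144 and Cfap36, adjusted p = 0.0122 and 0.0500), where 6.00% of probe sets were called, and 7 at an unadjusted p under 0.05. No member was called higher in any of these. Of the other cilium genes 1 was called with pseudocount 64, where 2.96% of all probe sets were called in either direction. With the mean of all probe sets 2 were called, where 3.94% of 14217 genes were. A further 2 were called with the dimmer 50% left out, 2 with the trend and 9 at an unadjusted p under 0.05, some of them the same genes. Arl3 was among them each time an adjusted p was used. Those called at an adjusted p were lower, except Plk4, which was higher (0.38) with the dimmer 50% left out. With the replicate block, the members' median was -0.15 and 0 were called. Over all probe sets, the deviations of lungs of the same number had low correlations (0.09, 0.04 and 0.09). With 1 array left out, 12 of the 65 estimates turned sign without silica replicate 2, 7 without control replicate 1, and 1 to 5 without each of the others. Among the 21 genes named by rule these were Odad3 (-0.42 to 0.01, above 0 without control replicate 1), Odad4 (-0.02 to 0.28, at or below 0 when control replicate 2, silica replicate 1 or silica replicate 3 was dropped), Dnah1 (-0.12 to 0.01) and Ift25 (-0.13 to 0.02), the last pair without silica replicate 2. Rsph10b turned to 0.15 with the mean of all probe sets. The cause was not tested.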

Other observations

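Mesothelial markers were lower in 2 of 3 measured cases, with a median of -0.02, and fibroblast and smooth muscle markers in 6 of 8, with a median of -0.16 and summed signals of 13127 to 16994 in control and 10416 to 12417 in silica. Among the ciliated cell markers that are not members, Tubb4b, a tubulin of cilia, read 6814, 6602 and 6752 in the control lungs and 6041, 5952 and 6027 in the silica lungs (-0.16 ± 0.09, adjusted p = 0.396), without overlap, and Cdhr4, a cadherin-like gene, 537, 425 and 485 in the control lungs and 563, 310.0 and 444 in the silica lungs, with silica replicate 1 above and silica replicate 2 below every control. Cyp4b1, a club cell enzyme, read 11174, 10478 and 11144 in the control lungs and 7431, 7895 and 7802 in the silica lungs (-0.50 ± 0.09, adjusted p = 0.0773). The 5 club cell markers differed among themselves in silica replicate 2: Cyp2a3, another enzyme, was the lowest of all lungs there (1431, 897 and 1262 in the control lungs and 946, 854 and 1521 in the silica lungs) and Scgb1a1, the main club cell secretory protein, the highest (27418, 25577 and 26386 in the control lungs and 22031, 29191 and 21932 in the silica lungs), with a median of the list of -0.45 in that lung.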
